A study of Mus musculus with 6 samples.

Results

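Glucocorticoid response genes were examined in cerebellum RNA of mice with and without a second floxed allele of Slc7a5. Slc7a5 encodes LAT1, which carries large neutral amino acids such as leucine. The 8 genes were chosen by name, as 6 genes that glucocorticoids induce (Fkbp5, Sgk1, Tsc22d3, Zbtb16, Plin4 and Errfi1) and the 2 receptors (Nr3c1 and Nr3c2). All 8 were found among the 46983 gene identifiers of the count tables, and all 8 passed the filter on low counts that left 16851 genes. The study has 3 mice labelled WT and 3 labelled Slc7a5-KO, each giving 1 library. WT mice had the genotype Tie2-Cre Slc7a5 fl/+ and Slc7a5-KO mice Tie2-Cre Slc7a5 fl/fl. All 6 were C57BL/6J animals of postnatal day 60, so the controls carry the recombinase and 1 floxed allele too. Tie2-Cre acts in endothelial and blood lineages, which are a small part of whole cerebellum. Hormone levels and the time of day of dissection are not given in the labels.

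Corticosterone, the main glucocorticoid of mice, enters cells and binds the glucocorticoid receptor (Nr3c1) or, with higher affinity, the mineralocorticoid receptor (Nr3c2). The bound receptor moves to the nucleus and acts on DNA at glucocorticoid response elements, palindromes of paired arms. Fkbp5, Sgk1, Tsc22d3 and Zbtb16 are widely used as readouts of this pathway in brain. Because the hormone follows the clock and stress, these transcripts can differ between animals of 1 genotype.

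Promoter windows were searched for such an element near the starts of these genes. Elements outside the windows and inexact forms of the palindrome were not searched, so a window without a match does not show that a gene lacks an element. Windows came from RefSeq on GRCm38.p6 and covered 250 bases before to 50 bases after a start. 6 of the 8 members matched, with 14 windows, of which Sgk1 had 6 and Tsc22d3 had 3. The full palindrome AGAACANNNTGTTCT, which reads the same on both strands, was found in 1 of these 14 windows and in 3 of 32851 windows of all genes (0.00913%). It lies before 1 of the Sgk1 starts, from position -189 relative to that start. The single arm, AGAACA on either strand, was in 4 of the 14 windows and in 19% of all windows, and each full palindrome contains it on both strands. Capitals mark the matches in the sequences below, shown because they are the member windows that hold one. The Sgk1 stretch of 250 bases also holds an arm near its left end. A match is a description of letters and was not tested for binding.
Sgk1, full palindrome, chr10:21993640-21993889, plus strand: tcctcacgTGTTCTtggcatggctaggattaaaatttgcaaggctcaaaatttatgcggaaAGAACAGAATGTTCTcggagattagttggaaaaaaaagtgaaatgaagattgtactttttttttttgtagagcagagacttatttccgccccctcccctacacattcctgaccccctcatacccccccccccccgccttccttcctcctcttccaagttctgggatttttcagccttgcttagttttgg
Sgk1, single arm, chr10:21881969-21882014, plus strand: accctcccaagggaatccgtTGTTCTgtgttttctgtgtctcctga
Sgk1, single arm, chr10:21992190-21992222, plus strand: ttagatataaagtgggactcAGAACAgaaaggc
Tsc22d3, single arm, chrX:140600682-140600727, minus strand: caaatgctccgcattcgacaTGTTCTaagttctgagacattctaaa

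Libraries held 13.4 to 34.2 M gene reads (M, mega), the fewest in Slc7a5-KO replicate 3. Slc7a5 itself stood at 43.2 to 72.0 CPM (counts per M reads, TMM-scaled) in WT and at 59.4 to 164 CPM across the libraries labelled Slc7a5-KO, so it did not bear out the labels. The labels do not say which exons are floxed, and most cells of whole cerebellum lie outside the Tie2 lineage, which makes this a weak check. Directions below follow the labels. Cerebellar markers were present in every library, with Gabra6 of granule neurons at 442 to 1080 CPM and Pcp2 of Purkinje cells at 369 to 623 CPM. All 6 Purkinje markers had a log2 fold change below 0 (median -0.42), as did 5 of 6 granule neuron markers (median -0.24). Over all genes tested, 50.3% were above 0. In these lists 0 were called by edgeR, and 3 and 0 had an unadjusted p under 0.05, against 6.22% of all genes. Rgs8 of Purkinje cells had the smallest p of these markers (log2 -0.57, edgeR unadjusted p = 0.00046, adjusted p = 0.22). Its groups did not overlap in CPM, as for 11.5% of all genes. Choroid plexus markers (8 of 8 measured) summed to 43.7 CPM in Slc7a5-KO replicate 2 and to 2370 to 5730 CPM in the other 5 libraries. Read from Xist and Y-linked counts, 1 of 3 WT animals and 2 of 3 Slc7a5-KO animals were female. These were WT replicate 2 and Slc7a5-KO replicates 1 and 3. Slc7a5-KO replicate 3 stood apart on principal component 1 (34% of variance), at 101.5 against -42.9 to -9.4 in the other 5 libraries. WT replicate 2 stood apart on component 2 (24.7% of variance).

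None of the 8 glucocorticoid response genes differed between the groups by edgeR's quasi-likelihood test at a Benjamini-Hochberg adjusted p of 0.05. Over all genes tested, 0.0475% were called. At an unadjusted p under 0.05 the count of members was also 0, against 6.22% of all genes. DESeq2 and limma-voom called 0 members too, though DESeq2 gave no adjusted p for Plin4. The groups overlapped in CPM for all 8 members, while 11.5% of all genes did not overlap. 5 members had a log2 fold change above 0 and 3 below, and 50.3% of all genes were above 0. The median over the members was 0.06 on the log2 scale, and over all genes it was 0.00. Below, ± gives the SD of CPM over the 3 animals of a group (n = 3) or the standard error of a log2 fold change. In bulk tissue, fewer cells of a type and less RNA per cell cannot be told apart.

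**Figure D1:**
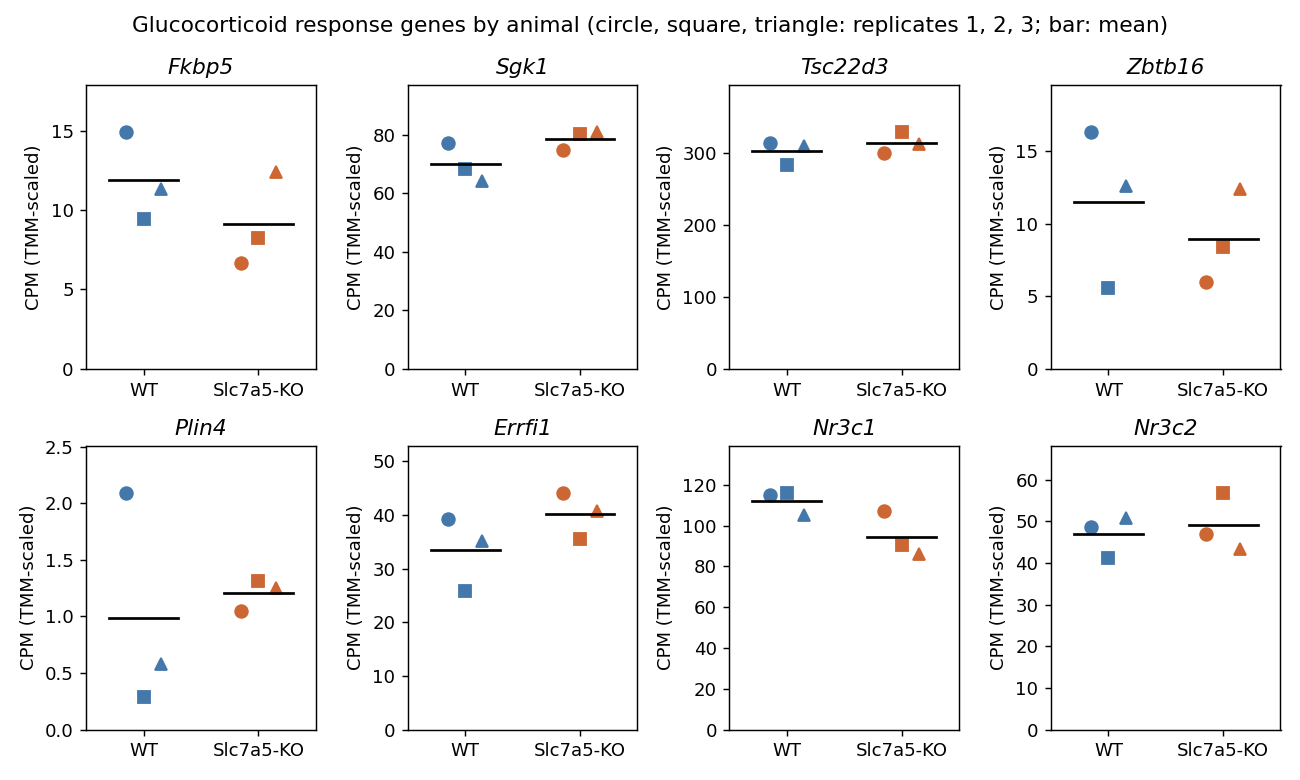
CPM (TMM-scaled, linear axis from 0) of the 8 genes in each animal, with circles, squares and triangles for replicates 1, 2 and 3 and a bar for the group mean. The groups overlap in every panel, and WT animals are spread most for Plin4 (0.289 to 2.09 CPM).

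Fkbp5, a co-chaperone of Hsp90 that lowers the hormone affinity of the receptor and is itself induced by it, stood at 14.9, 9.46 and 11.3 CPM across WT replicates 1 to 3. Across the libraries labelled Slc7a5-KO it stood at 6.66, 8.26 and 12.4 CPM. WT replicate 1 was the highest and Slc7a5-KO replicate 1 the lowest, and Slc7a5-KO replicate 3 lay above 2 of the WT animals. The means were 11.9 ± 2.77 and 9.09 ± 2.94 CPM, which gave a log2 fold change of -0.40 with a standard error of 0.29 (edgeR adjusted p = 0.91). Its 95% confidence interval ran from -1.0 to 0.20, or from 0.498 to 1.15 as a fold. Omitting Slc7a5-KO replicate 3 gave -0.67, and omitting WT replicate 1 gave -0.20. Fkbp5 (ENSMUSG00000024222.16) lies on GRCm38 chromosome 17, 28399094 to 28517527, minus strand.

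Zbtb16, which encodes the zinc finger repressor PLZF, stood at 16.3, 5.56 and 12.6 CPM across WT and at 5.97, 8.41 and 12.4 CPM across the libraries labelled Slc7a5-KO. All values of the latter lay within the WT range, and the highest animal was 2.93-fold above the lowest. This gave -0.38 ± 0.36 on the log2 scale (edgeR adjusted p = 0.95), with a 95% confidence interval of -1.13 to 0.38. Single animals moved it, to -0.03 when WT replicate 1 was omitted, to -0.70 for WT replicate 2 and to -0.68 for Slc7a5-KO replicate 3, and it was -0.05 with a term for sex. Zbtb16 (ENSMUSG00000066687.4) lies on chromosome 9, 48654297 to 48836222, minus strand.

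Tsc22d3, also called GILZ, encodes a leucine zipper protein that carries part of the anti-inflammatory action of glucocorticoids. It stood at 314, 283 and 310 CPM across WT and at 300, 329 and 313 CPM across the libraries labelled Slc7a5-KO. The animals lay close together, with a highest value 1.16-fold above the lowest. The group difference was 0.06 ± 0.12 on the log2 scale (edgeR adjusted p = 0.99), and the 95% confidence interval, as a fold, was 0.871 to 1.24. Over the 6 libraries the SD of log2 CPM was 0.07, and 0.938% of genes tested had an SD that low or lower. Tsc22d3 (ENSMUSG00000031431.13) lies on chromosome X, 140539528 to 140600659, minus strand.

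Sgk1, a kinase that acts on ion channels and transporters, and whose window holds the full palindrome printed above, stood at 77.1, 68.2 and 64.2 CPM across WT. Across the libraries labelled Slc7a5-KO it stood at 74.9, 80.1 and 80.8 CPM. Slc7a5-KO replicates 2 and 3 were the highest, and WT replicate 1 lay above Slc7a5-KO replicate 1. The means were 69.8 ± 6.57 and 78.6 ± 3.25 CPM, giving 0.17 ± 0.14 as the log2 fold change (edgeR adjusted p = 0.93) and a 95% confidence interval of 0.924 to 1.37 as a fold. Its value was 0.25 without WT replicate 1 and 0.11 without WT replicate 3. Sgk1 (ENSMUSG00000019970.15) lies on chromosome 10, 21882184 to 21999903, plus strand. Sgk1 is also abundant in oligodendrocytes, whose 9 markers summed to 4220 to 6260 CPM across WT and 4330 to 7430 CPM across the libraries labelled Slc7a5-KO, and their part in the Sgk1 values was not tested.

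Errfi1, or MIG6, is a feedback inhibitor of the EGF receptor. It stood at 39.3, 25.8 and 35.2 CPM across WT and at 44.1, 35.6 and 40.7 CPM across the libraries labelled Slc7a5-KO. WT replicate 2 was the lowest animal, and WT replicate 1 lay above Slc7a5-KO replicate 2. With means of 33.5 ± 6.90 and 40.1 ± 4.29 CPM, the difference was 0.26 ± 0.18 on the log2 scale (edgeR adjusted p = 0.90; 95% confidence interval -0.12 to 0.64). The estimate was 0.39 without WT replicate 1 and 0.11 without WT replicate 2. Errfi1 (ENSMUSG00000028967.10) lies on chromosome 4, 150853919 to 150868892, plus strand.

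Plin4 encodes a perilipin, a coat protein of lipid droplets, and was the lowest member. It stood at 2.09, 0.289 and 0.579 CPM across WT and at 1.05, 1.31 and 1.25 CPM across the libraries labelled Slc7a5-KO. These values rest on 74, 8 and 16 reads in WT and on 34, 35 and 17 reads in the others, so counting error is large. The libraries labelled Slc7a5-KO all lay inside the WT range. Its difference was 0.28 ± 0.95 on the log2 scale (edgeR adjusted p = 0.99), with a 95% confidence interval of 0.306 to 4.80 as a fold, so the data set no useful bound for this gene. It was 1.46 without WT replicate 1 and -0.15 without WT replicate 2. Plin4 (ENSMUSG00000002831.13) lies on chromosome 17, 56100591 to 56109803, minus strand, with an exon overlap with Hdgfl2 on the other strand. The strand used held 94.8% to 95.8% of stranded reads, so some Hdgfl2 reads may count toward Plin4, which was not tested. With unstranded counts the log2 fold change of Plin4 was 0.50.

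The receptor Nr3c1 had the smallest p of the 8. It stood at 115, 116 and 105 CPM across WT and at 107, 90.6 and 86.3 CPM across the libraries labelled Slc7a5-KO. Slc7a5-KO replicates 2 and 3 were the lowest, and Slc7a5-KO replicate 1 lay above WT replicate 3. The means were 112 ± 6.05 and 94.6 ± 10.9 CPM, giving -0.24 ± 0.13 as the log2 fold change (edgeR unadjusted p = 0.087, adjusted p = 0.85). The 95% confidence interval was 0.699 to 1.03 as a fold. Omitting single libraries gave estimates of -0.34 to -0.18, the latter without Slc7a5-KO replicate 3, the lowest. Purkinje and granule neuron markers also had medians below 0, and their part was not tested. Nr3c1 (ENSMUSG00000024431.14) lies on chromosome 18, 39410545 to 39519421, minus strand.

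Nr3c2, the mineralocorticoid receptor, stood at 48.6, 41.3 and 50.9 CPM across WT and at 47.0, 56.8 and 43.4 CPM across the libraries labelled Slc7a5-KO. Slc7a5-KO replicate 2 was the highest and WT replicate 2 the lowest. On the log2 scale the difference was 0.06 ± 0.16 (edgeR adjusted p = 0.99), with a 95% confidence interval of 0.832 to 1.32 as a fold, and it was -0.06 without Slc7a5-KO replicate 2. Nr3c2 (ENSMUSG00000031618.13) lies on chromosome 8, 76899442 to 77245012, plus strand, with an exon overlap with the lncRNA Gm10649 on the other strand. Per kb of exon, the ratio of Nr3c1 to Nr3c2 was 1.99, 2.37 and 1.74 in WT and 1.92, 1.34 and 1.68 in the libraries labelled Slc7a5-KO. Nr3c1 was thus the higher receptor transcript in all 6 libraries, and the ratios of the groups overlapped.

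**Figure D2:**
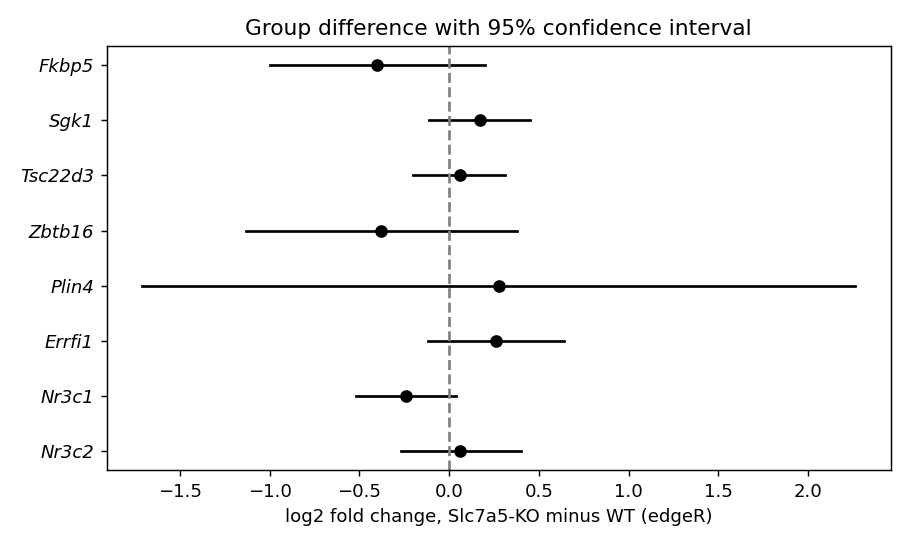
Log2 fold change (Slc7a5-KO minus WT, edgeR) of each gene as a point, with its 95% confidence interval as a line and 0 dashed. All 8 intervals include 0, from the narrow one of Tsc22d3 (-0.20 to 0.31) to the wide one of Plin4 (-1.71 to 2.26).

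The authors' deposited table called 131 genes at an adjusted p under 0.05 among 14561 with such a value, and 0 of the 8 members. In the authors' deposited table Nr3c1 had an unshrunken log2 fold change of -0.24 with an unadjusted p of 0.044 and an adjusted p of 0.43. Fkbp5 had -0.41 in the authors' deposited table, with an adjusted p of 0.61.

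The level per length, in CPM per kb of exon and as a mean over 6 libraries, put Tsc22d3 first at 71.0 (65.3 to 75.8 over the libraries). Sgk1 followed at 15.1 (13.1 to 16.5) and Nr3c1 at 13.4 (11.2 to 15.1). Errfi1 stood at 10.3 (7.21 to 12.3) and Nr3c2 at 7.41 (6.37 to 8.77). These 4 genes form a chain in which each neighbour's range overlaps the next. Zbtb16 was far lower, at 1.93 (1.05 to 3.09), and overlapped Fkbp5 at 1.11 (0.703 to 1.58). Plin4 was last at 0.190 (0.05 to 0.362). The ranges of Tsc22d3 and Sgk1, of Nr3c2 and Zbtb16, and of Fkbp5 and Plin4 did not overlap. Exon length is the union over all annotated transcripts, so a gene that uses short isoforms here has a higher true level.

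**Figure D3:**
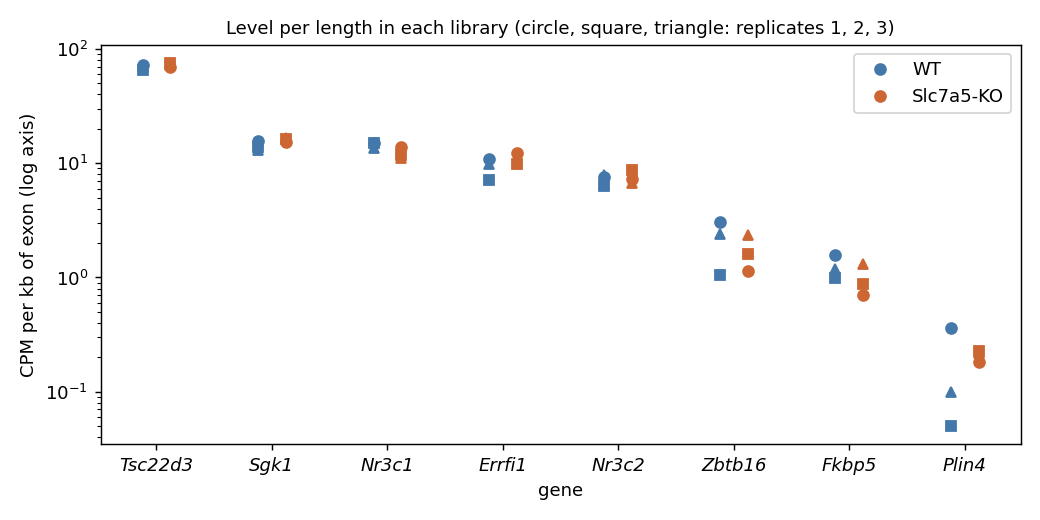
CPM per kb of exon on a log axis for each gene, with 1 point per library (blue WT, orange Slc7a5-KO; circle, square and triangle for replicates 1, 2 and 3). Tsc22d3 lies above all others at 65.3 to 75.8, and Plin4 below all others at 0.05 to 0.362.

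The spread between animals was uneven over the members and did not follow the labels. The SD of log2 CPM over the 6 libraries was 0.07 for Tsc22d3, 0.13 for Sgk1, 0.16 for Nr3c2 and 0.18 for Nr3c1. It was 0.27 for Errfi1. The 3 members lowest per kb spread most, with 0.42 for Fkbp5, 0.63 for Zbtb16 and 0.91 for Plin4. Among all genes tested these SDs stood at the percentiles 0.938, 9.92, 17.9, 21.0, 44.1, 64.4, 76.8 and 84.8 in the same order. Fkbp5 rested on 168 to 528 reads per library, Zbtb16 on 154 to 577 and Plin4 on 8 to 74. Counting error adds more spread at lower counts, and its part in these values was not tested. WT replicate 1 was the highest library for Fkbp5, Zbtb16 and Plin4. WT replicate 2 was the lowest library for 5 members, namely Tsc22d3, Zbtb16, Plin4, Errfi1 and Nr3c2, and was the highest for Nr3c1.

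Each library was also given 1 value, the average over the 6 induced genes of log2 CPM minus the gene's own mean. This average was 0.44, -0.51 and -0.05 in WT replicates 1 to 3. It was -0.14, 0.03 and 0.23 in the libraries labelled Slc7a5-KO, all within the WT range. It thus differed more between WT replicates 1 and 2 than between any pair of Slc7a5-KO libraries. WT replicate 1 was male and WT replicate 2 female, and the part of sex in this difference was not tested. Plin4, the member with the fewest reads, weighs on the average. An average over the other 5 genes, chosen after seeing the data, was 0.31, -0.32 and 0.07 in WT and -0.20, -0.06 and 0.20 in the libraries labelled Slc7a5-KO. The same average over 26 other genes that glucocorticoids induce was 0.07, -0.19 and 0.01 in WT. It was -0.17, 0.03 and 0.25 in the libraries labelled Slc7a5-KO. It ranked the libraries as the 6 induced genes did, except that Slc7a5-KO replicate 3 stood above WT replicate 1. Lcn2 weighs on that average, with an SD of log2 CPM of 2.70 and its highest value, 11.0 CPM, in Slc7a5-KO replicate 3. An average without Lcn2 was not computed, so this exception in the ranking may rest on Lcn2. Of those 26 genes, 2 were highest in WT replicate 1 and 7 lowest in WT replicate 2, and Per1 was the 1 gene that was both. WT replicate 2 also had the highest summed markers of red blood cells (355 CPM, against 107 to 231 in the other libraries), of granule neurons (4790 CPM, against 2780 to 4620) and of Purkinje cells (6000 CPM, against 3420 to 5270). It had the lowest sums for oligodendrocytes (4220 CPM, against 4330 to 7430) and for pericytes and smooth muscle (120 CPM, against 142 to 157). The part of these differences in its low values was not tested. Endothelial markers summed to 195 to 223 CPM across WT and 206 to 245 CPM across the libraries labelled Slc7a5-KO, with 10 of 10 measured.

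**Figure D4:**
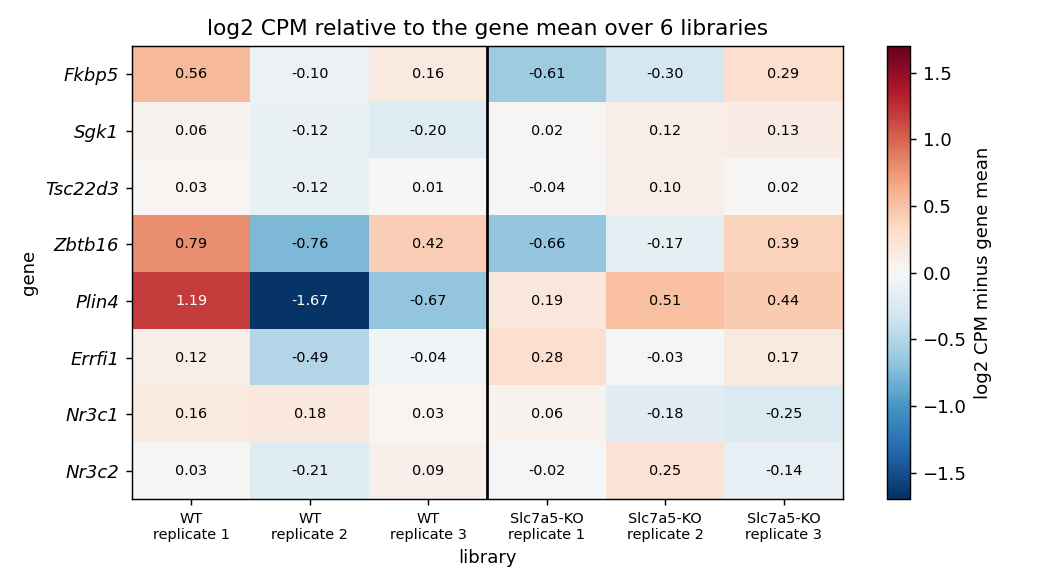
Log2 CPM of each gene (rows) in each library (columns) relative to the gene's mean over 6 libraries, in red where higher and blue where lower. No prior count was added here. WT replicate 1 is high for Plin4 (1.19), Zbtb16 (0.79) and Fkbp5 (0.56), and WT replicate 2 is low for Plin4 (-1.67) and Zbtb16 (-0.76).

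Over the 6 libraries, which share these 2 groups, 14 of the 15 pairs of induced genes had a Pearson correlation above 0, with a median of 0.53 and a range of -0.02 to 0.86. Fkbp5 and Zbtb16 were the closest pair (0.86, and 0.89 after each group's mean was taken out). Plin4 and Errfi1 had 0.79, and Sgk1 and Plin4 had 0.77. Tsc22d3 and Nr3c2 had 0.80. With group means taken out, these 3 pairs had 0.75, 0.76 and 0.81. Nr3c1 had 6 of its 7 correlations below 0, the lowest with Tsc22d3 (-0.65) and Sgk1 (-0.58), and these moved when group means were taken out. They were then -0.57 with Tsc22d3 and -0.08 with Sgk1, -0.04 with Plin4, 0.13 with Errfi1, -0.59 with Zbtb16 and -0.63 with Fkbp5, the last of which had been 0.06. These values describe 6 animals and carry no test.

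Outside the lists, 5 genes of at least 5 CPM were most like the mean of the 6 induced genes. They were Gsdme (Pearson r = 0.997 over 6 libraries), Tmem63b (0.987), Ppp4r1 (0.986), Bcl9l (0.980) and Ccdc141 (0.978). Gsdme, which encodes the pore-forming gasdermin E, stood at 11.2, 3.54 and 6.08 CPM across WT and at 5.76, 6.80 and 8.16 CPM across the libraries labelled Slc7a5-KO. Each of the 5 was highest in WT replicate 1 and lowest in WT replicate 2. The mean they were chosen to follow has the same extremes, so this largely follows from the selection. Of 11429 genes compared, 118 had r above 0.9 and 122 had r below -0.9.

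The 26 other glucocorticoid-induced genes that were measured were evenly divided. 13 were above 0 and 13 below, with a median log2 fold change of -0.02, and 0 were called in either direction by edgeR. At an unadjusted p under 0.05, 2 were higher and 1 lower, against 6.22% of all genes in both directions. 3 of the 26 did not overlap between the groups, against 11.5% of all genes. The metallothioneins, metal-binding proteins that glucocorticoids and metals induce, had the smallest p. Mt2 stood at 170, 116 and 121 CPM across WT and at 202, 151 and 233 CPM across the libraries labelled Slc7a5-KO (log2 0.53 ± 0.17, edgeR adjusted p = 0.59). Mt1 stood at 52.6, 39.8 and 45.3 against 58.3, 66.7 and 58.9 CPM (log2 0.42 ± 0.15, edgeR adjusted p = 0.67), with no overlap. Multimapping reads are listed as 0 in the tables, so the levels of these related genes may be uncertain, which was not tested.

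Gpd1, the cytosolic glycerol phosphate dehydrogenase, went the other way without overlap, at 114, 125 and 100 CPM across WT and 86.2, 95.9 and 86.6 CPM across the libraries labelled Slc7a5-KO (log2 -0.33 ± 0.13, edgeR adjusted p = 0.74). Hif3a, a hypoxia-factor relative, had -0.56 ± 0.28 (edgeR adjusted p = 0.82), and its value was -0.15 without WT replicate 3, the highest library at 25.2 CPM. Klf9, a Krüppel-like factor induced directly by the receptor, had -0.13 ± 0.16. Ddit4, an inhibitor of mTORC1, had 0.10 ± 0.21 and Nfkbia, the NF-kappa-B inhibitor, had 0.27 ± 0.22. Cdkn1a, the cell cycle inhibitor p21, had 0.17 ± 0.25. Dusp1, a MAP kinase phosphatase that neuronal activity also induces, had 0.20 ± 0.43, with 43.5 to 119 CPM over the libraries labelled Slc7a5-KO. Per1 had -0.05 ± 0.23. None of these passed, with edgeR adjusted p of 0.93 for Nfkbia, 0.96 for Klf9, 0.97 for Cdkn1a, 0.98 for Ddit4, and 0.99 for Dusp1 and Per1.

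**Figure D5:**
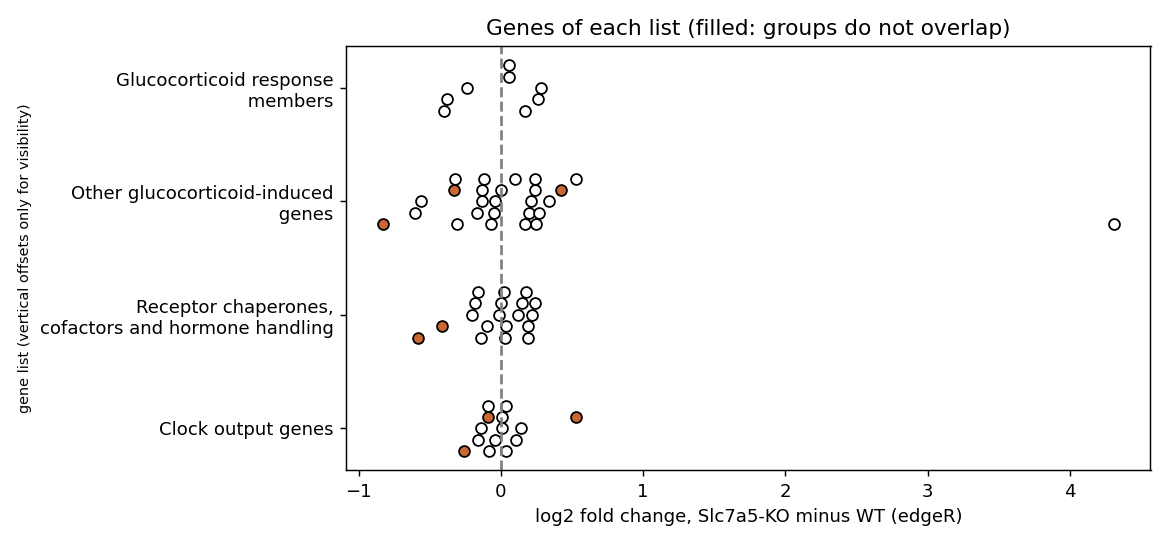
Log2 fold change (Slc7a5-KO minus WT, edgeR) of every measured gene of the 8 members, the 26 other induced genes, the 19 genes of receptor handling and the 14 clock genes, filled where the groups do not overlap. The points scatter around 0 in each list, and the 1 far to the right (4.31) is Lcn2, which is high in 1 library.

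Genes that handle the receptor and its hormone were tested next. Of 21 listed, 19 passed the filter, and Hsd11b2 and Serpina6 had 0 reads in all 6 libraries, which allows up to 3 reads per library, or 0.0878 to 0.223 CPM. Hsd11b2 inactivates corticosterone and Serpina6 is its carrier in plasma. Of the 19, 10 were above 0 and 9 below, with a median of 0.02 and 0 called by edgeR. At an unadjusted p under 0.05, 2 were lower and 0 higher, against 6.22% of all genes in both directions.

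Both of these lower values belong to the enzyme pair that regenerates active hormone inside cells. Hsd11b1, the reductase, stood at 45.0, 42.2 and 44.0 CPM across WT and at 33.9, 38.0 and 26.4 CPM across the libraries labelled Slc7a5-KO. The groups did not overlap, with a difference of -0.41 ± 0.17 on the log2 scale (edgeR unadjusted p = 0.025, adjusted p = 0.74). H6pd, which supplies the reductase with NADPH in the endoplasmic reticulum, stood at 19.1, 19.7 and 21.8 CPM across WT. Across the libraries labelled Slc7a5-KO it stood at 14.6, 16.8 and 8.82 CPM, also without overlap (log2 -0.58 ± 0.24, edgeR unadjusted p = 0.025, adjusted p = 0.74). Slc7a5-KO replicate 3, the shallowest library and the one apart on component 1, was the lowest for both, and without it the values were -0.28 and -0.36. The part of Purkinje and granule neuron markers, whose medians were below 0, in these values was not tested. Neither passed the adjustment, and 2 of 19 genes without overlap compares with 11.5% of all genes.

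Among the chaperones, Fkbp4, which helps the receptor reach the nucleus, stood at 171 ± 24.8 and 170 ± 14.8 CPM (log2 -0.01 ± 0.13). Hsp90aa1 had -0.18 ± 0.17 and Hsp90ab1, the other cytosolic Hsp90, had 0.19 ± 0.13. Ptges3, the co-chaperone p23, had -0.20 ± 0.23. Crebbp, a coactivator, had 0.22 ± 0.13. Abcb1a, the efflux pump P-glycoprotein of the blood-brain barrier, which exports some glucocorticoids, stood at 20.7, 11.9 and 16.8 CPM across WT and at 20.5, 12.7 and 17.4 CPM across the libraries labelled Slc7a5-KO (log2 0.03 ± 0.25). None passed, with edgeR adjusted p from 0.86 for Crebbp to 1.0 for Fkbp4 and Abcb1a.

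Clock genes were measured beside these because corticosterone follows the time of day. Of 14, 7 were above 0 and 7 below, with a median of -0.02, 0 called by edgeR, 1 at an unadjusted p under 0.05 (6.22% of all genes) and 3 without overlap (11.5% of all genes). Ciart, a repressor within the clock, stood at 8.31, 10.7 and 11.1 CPM across WT and at 13.6, 14.1 and 15.8 CPM across the libraries labelled Slc7a5-KO (log2 0.53 ± 0.24, edgeR adjusted p = 0.78). Nr1d2, the repressor Rev-erb-beta, had -0.26 ± 0.14 (edgeR adjusted p = 0.83). Dbp, a clock output factor, had -0.16 ± 0.14 (edgeR adjusted p = 0.94). Its level ran from 83.3 to 104 CPM across WT and from 78.4 to 90.2 CPM across the libraries labelled Slc7a5-KO. A part of time of day in the members' spread was not tested.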

How the data were processed

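Per the labels' protocols, cerebellum total RNA was made into libraries with a SENSE mRNA-Seq V2 kit. The deposited tables hold raw read counts per gene, 1 table for each mouse. STAR 2.5.4 and GRCm38 (mm10) are named in the submitters' processing notes. The reverse-strand column, with 94.8% to 95.8% of stranded reads, was analysed. Reads in no gene or in several (19.5% to 22.2%) stayed out. Per the file headers, the authors' deposited table gives a mean signal (normalised count), log2 fold changes, a Wald score and p-values; the submitters' processing notes name DESeq2 1.10.1 and R 3.2.4.

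Symbols matched 46488 of 46983 identifiers, and coordinates come from GENCODE M21. edgeR 4.0.16 in R 4.3.3 was run with filterByExpr (minimum count 10, minimum total 15), TMM, robust quasi-likelihood and Benjamini-Hochberg adjustment over 16851 genes, at 0.05, 2-sided. The biological coefficient of variation was 31.6%. CPM carry the TMM scaling, with a prior count of 2 on the log2 scale. The code was tested on simulated data. Labels give 1 animal per library. The p-values set the group difference against the spread between these animals, which edgeR estimates with information shared over genes. Floors of 3 reads cover counting error only, and PCR copies may be among the counts, as the labels describe no molecular identifiers.

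All 8 members were named, with preset genes of the 2 pathway lists, the 3 genes with the smallest p in those and the clock list, and the 5 genes most like the induced mean. Lcn2, Angptl4, Tef, Gabra6, Pcp2 and Rgs8 were chosen after their values were seen. The members and lists were chosen with earlier results of these data known. Alternatives were other scalings, no filter, DESeq2 1.42.0, limma-voom (limma 3.58.1), unstranded counts, a replicate block, a sex term, thinning, and leaving out each library. Nr3c1 and Zbtb16 had no entry among the promoter windows, so no sequence is printed for either.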

Additional observations from a re-analysis of the deposited data

How the results depend on the processing

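No member was called under any of 15 alternatives, where the lowest adjusted p was 0.51 (Nr3c1), and the median over the members ran from -0.08 to 0.13. Of 120 member values under alternatives, 3 changed sign, all when 1 library was left out. Plin4 then ran from -0.15 to 1.46 and Nr3c2 from -0.06 to 0.15. The count over all genes (8) was 71 with no filter, 46 by DESeq2 and 16 with a sex term, and 3 to 20 when 1 library was left out. With the replicate number as a block it was 6, and no member's call changed. Same-numbered libraries had correlations of -0.06 to -0.03 in their deviations from the group means, which shows no strong shared effect of the replicate number. The labels do not say whether same-numbered animals were paired. Other named genes changed sign too. Per1 had 0.02 by limma-voom, 0.02 with the replicate block and 0.20 with a sex term, and -0.31 to 0.25 when 1 library was left out. Dusp1 had -0.05 with a sex term and -0.11 to 0.52 when 1 library was left out, Fkbp4 0.02 without TMM and -0.11 to 0.11, and Abcb1a -0.02 after thinning and -0.15 to 0.23. Cdkn1a ran from -0.02 to 0.35, Ptges3 from -0.38 to 0.11, Hsp90aa1 from -0.31 to 0.00 and Klf9 from -0.24 to 0.03 over the same omissions. The cause was not tested. With 3 animals a group, changes inside the printed intervals remain compatible with the data, and the smallest detectable change was not computed. Plin4 is limited by its 8 to 74 reads.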

Other observations

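Lcn2, which encodes the iron-binding acute-phase protein lipocalin 2, was near 0 in most animals and high in 1. It stood at 0, 0 and 0.579 CPM across WT and at 0.155, 0.561 and 11.0 CPM across the libraries labelled Slc7a5-KO (edgeR adjusted p = 0.86), with the high value in Slc7a5-KO replicate 3, the library apart on principal component 1. Angptl4, a secreted inhibitor of lipoprotein lipase, stood at 3.28, 4.26 and 3.33 CPM across WT and at 0.712, 2.95 and 2.5 CPM across the libraries labelled Slc7a5-KO, without overlap (log2 -0.83 ± 0.54, edgeR adjusted p = 0.89). Its lowest value was in Slc7a5-KO replicate 1, which was also the lowest library for Fkbp5. Tef, a clock output factor, stood at 266, 266 and 277 CPM across WT and at 245, 255 and 259 CPM across the libraries labelled Slc7a5-KO, without overlap but with a small difference (log2 -0.09 ± 0.12, edgeR adjusted p = 0.97). Values of these 3 genes were looked up after the data were seen.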
